A study of Arabidopsis thaliana with 6 samples.

Results

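Thioredoxins are small proteins that reduce disulfide bonds in other proteins, and 49 of the 27372 genes in the table were thioredoxins, their relatives or their reductases. They were chosen by the word thioredoxin in the description that the table gives a gene, whatever its level. The description placed 22 of them in the chloroplast, here the chloroplast forms, and the other 27 are called the other forms. NTRC, an NADPH-dependent reductase of the chloroplast with a thioredoxin domain of its own, counts among the other forms because its description lacks the word chloroplast. Only 14276 genes have a description, so the rule misses others such as FTRA1 and FTRA2, which encode a subunit of ferredoxin-thioredoxin reductase.

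In a typical thioredoxin a pair of cysteines, set between a tryptophan and a basic residue, gives its electrons to the disulfide of a target and is then reduced again. In the chloroplast the electrons come from photosystem I through ferredoxin and ferredoxin-thioredoxin reductase, so that thioredoxins of types f and m switch on enzymes of carbon fixation in the light. In the cytosol and mitochondria they come from NADPH through the thioredoxin reductases NTRA and NTRB, which serve the thioredoxins of types h and o. Among the targets are peroxiredoxins, which remove peroxides, and methionine sulfoxide reductases, which repair oxidized methionine.

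RNA was taken from whole seedlings of *fer-4*, a mutant of the receptor-like kinase gene *FERONIA* (*FER*), and of Col-0, the control accession, with 3 biological replicates each. Both had grown on MS-agar for 7 days in long days under moderately elevated light (ML), and both were harvested at zeitgeber time 3, that is 3 h after lights on. The labels give 154 mmol m–2 s–1 for this light and the methods give the same number in μmol. The comparison asks which transcripts differ when *FER* is lost under ML, and it rests on 1 mutant allele. *FER* itself was at 0.0905, 0.0270 and 0.0438 FPKM in *fer-4*, against 56.5, 62.6 and 64.6 FPKM in Col-0. FPKM divides the fragments of a gene by its transcript length and by the mapped fragments of the library. Since no counts are in the table, the number of fragments behind each value is unknown. The FPKM of a library summed to between 910619 and 1058751. Genes averaging 0.5 FPKM or more over the 6 libraries, 19839 in number, entered a limma fit of log2(FPKM + 0.1), with Benjamini-Hochberg adjustment over all of them. A gene is said to have risen or fallen in *fer-4* at an adjusted p under 0.05. DEGs, as the study defines them, are those with an adjusted p up to 0.01 that differ by 2-fold or more.

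The 8 thioredoxins of type h that were detected, which lie outside the chloroplast, all had a positive log2 fold change, and TRX h8, TRX h7, TRX h5 and TRX h3 rose. By contrast, no thioredoxin of types f, m, x, y or z rose and 5 of the 10 fell, with the largest falls in TRX m1, TRX f1 and TRX f2. For comparison, 43.7% of all tested genes with chloroplast in the description were lower and 9.94% higher. In all, 8 of 45 members tested rose and 12 fell, against a background of 18.0% of all genes tested that were higher and 16.0% that were lower. The DEGs were 3 members that rose and 0 that fell, against 6.36% and 2.53% of all genes. With limma, 0 members were lower by at least 2-fold even at an unadjusted p under 0.05. With quantile normalization 6 members rose and 16 fell, and 42.2% of the genes called were higher, against 53.0% without it. Leaving out Col-0 replicate 1 or Col-0 replicate 2 left 4 members that rose, and leaving out Col-0 replicate 3 left 5 that rose and 8 that fell. Not tested were TRX h10 and ACHT3, which were listed at 0 in all 6 libraries, and TTL2 and CXXS2, which were at no more than 0.265 FPKM in any.

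**Figure D1:**
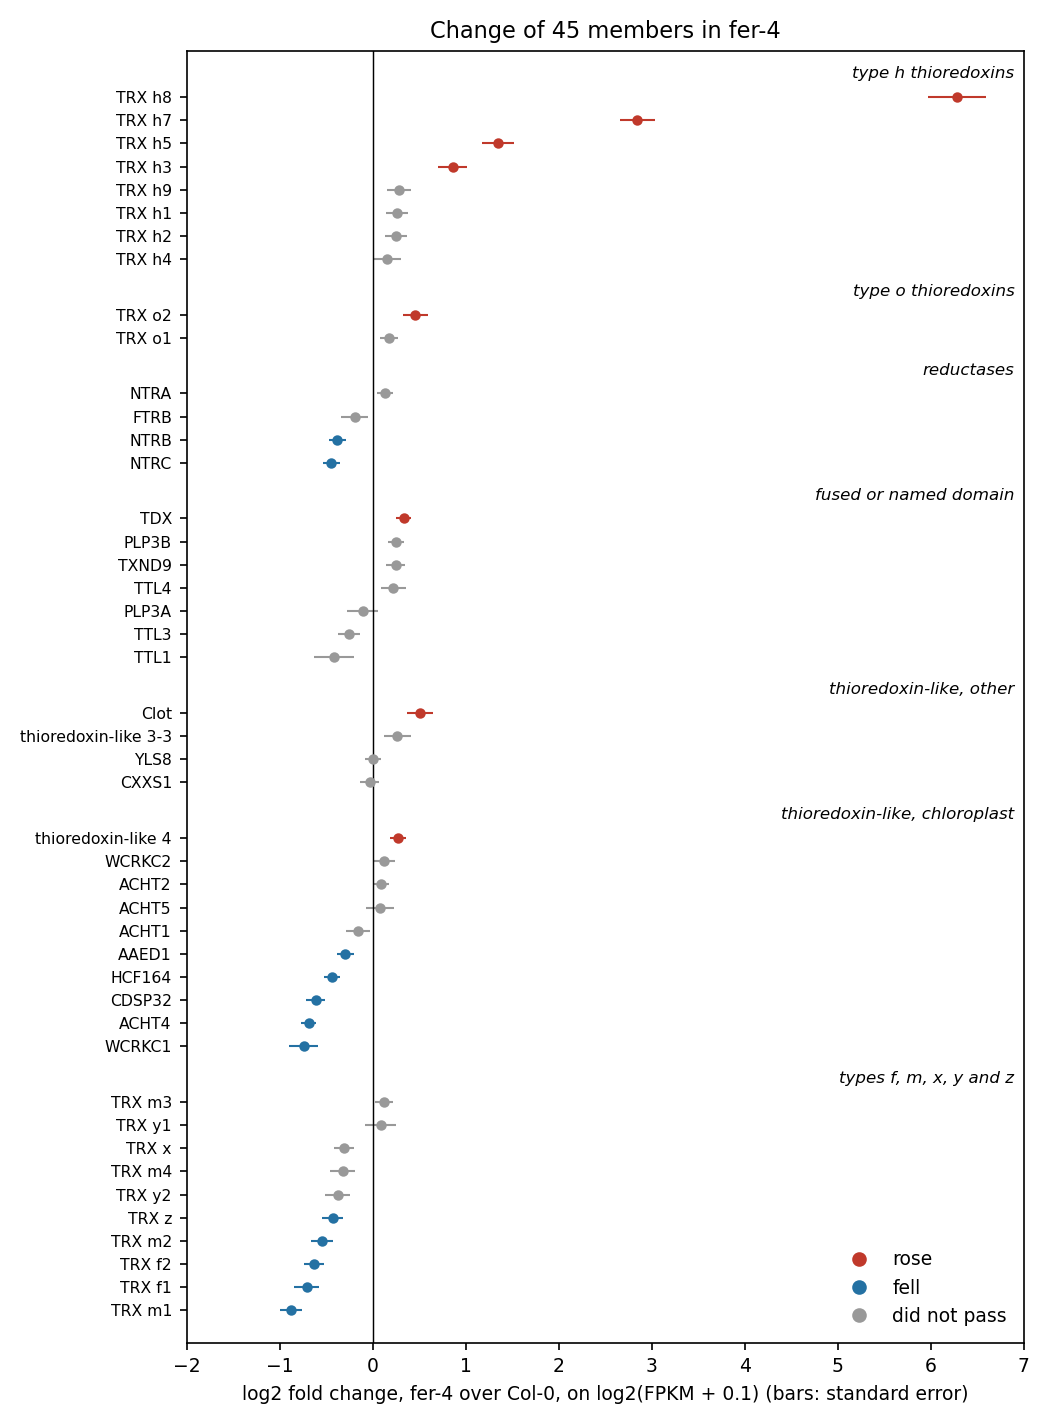
Change in *fer-4* relative to Col-0, on the log2 scale, for the 45 members tested, by class, with bars for the standard error and color for the call at an adjusted p under 0.05. The points of types f, m, x, y and z lie between -0.88 and 0.12, and those of type h between 0.16 and 6.28.

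The whole coding sequence of the 49 members, from the RefSeq annotation of TAIR10.1, was searched for the active site. In 29 of them codons for tryptophan and both cysteines were found in the usual spacing. In 11 only a pair of cysteine codons in that spacing was found. That pair could lie anywhere in the sequence and need not be the active site. In 9 neither was found. Of the 29, 18 had codons for glycine and proline between the cysteines, the typical pair. TRX h3, TRX h4 and TRX h5 were the 3 with a pair of proline codons. The sequences below are those of the type h members that rose, of TRX h4 as the third with the proline pair, and of the m type members TRX m1 and TRX m2 that fell. They are 45 bases of coding exon on the gene's strand, with the 5 codons from tryptophan to the second cysteine in capitals.
TRX h8: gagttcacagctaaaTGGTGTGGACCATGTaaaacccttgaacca
TRX h7: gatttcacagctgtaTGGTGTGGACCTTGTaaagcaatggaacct
TRX h5: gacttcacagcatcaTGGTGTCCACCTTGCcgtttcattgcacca
TRX h3: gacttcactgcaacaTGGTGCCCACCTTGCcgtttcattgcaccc
TRX h4: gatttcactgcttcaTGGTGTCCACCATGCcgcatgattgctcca
TRX m1: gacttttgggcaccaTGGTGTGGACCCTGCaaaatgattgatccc
TRX m2: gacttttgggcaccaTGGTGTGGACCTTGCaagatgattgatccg
These stretches lie at chr1:26322425-26322469 (plus strand) for TRX h8, chr1:21953041-21953085 (minus) for TRX h7, chr1:17075480-17075524 (minus) for TRX h5 and chr5:17243360-17243404 (plus) for TRX h3. Those of TRX h4, TRX m1 and TRX m2 are at chr1:6823479-6823523, chr1:917194-917238 and chr4:1562792-1562836, all on the minus strand. The type h members that rose hold both kinds of middle pair, since TRX h8 and TRX h7 have glycine and proline codons as TRX m1 and TRX m2 do.

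TRX h8 (AT1G69880, chromosome 1 from 26321479 to 26322993) changed the most of the members. It was at 83.5, 49.8 and 109 FPKM in *fer-4*, against 0.842, 0.634 and 1.296 FPKM in Col-0. The lowest *fer-4* library lay far above the highest Col-0 library. Its log2 fold change was 6.28 (standard error 0.31, adjusted p = 4.72e-06), or 77.8-fold on the scale with the pseudocount of 0.1, and the log2 fold change was 5.35 with a pseudocount of 1. TRX h7 (AT1G59730, chromosome 1 from 21952634 to 21953456) was at 19.9, 16.8 and 13.1 FPKM in *fer-4*, against 1.78, 2.45 and 2.40 FPKM in Col-0. These groups did not overlap either. The log2 fold change of TRX h7 was 2.85 (standard error 0.18, adjusted p = 1.74e-05).

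TRX h5 (AT1G45145, chromosome 1 from 17074942 to 17076330) and TRX h3 (AT5G42980, chromosome 5 from 17242607 to 17243912) are cytosolic thioredoxins known to reduce NPR1, the coactivator of the salicylic acid response. TRX h5 was at 148, 110.4 and 97.5 FPKM in *fer-4*, against 45.4, 53.8 and 39.4 FPKM in Col-0, and it rose (log2 fold change 1.35, standard error 0.17, adjusted p = 6.45e-04). TRX h3, the most abundant member, was at 2436, 1784 and 1916 FPKM in *fer-4*, against 1162, 1157 and 1032 FPKM in Col-0. The groups of neither gene overlapped, and *fer-4* replicate 1 was the highest library for both. The log2 fold change of TRX h3 was 0.86 (standard error 0.16, adjusted p = 0.00382). In the coding sequence the pair is identical at 79.6% of bases, and the longest run that their transcripts share is 32 bases. Whether any reads of the abundant TRX h3 were assigned to TRX h5 was not tested. TRX h7 and TRX h8, with 68.4%, share no run over 12 bases.

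The other 4 type h members tested did not pass. TRX h2, which is found at membranes and in mitochondria, was at 196, 144 and 166 FPKM in *fer-4*, against 138, 139 and 144 FPKM in Col-0 (log2 fold change 0.25, adjusted p = 0.135). Its groups met at the edge, with the lowest *fer-4* library just under the highest Col-0 library. Without *fer-4* replicate 2 TRX h2 passed, with 0.36 and an adjusted p of 0.0305. TRX h9, which can move from cell to cell, TRX h1 and TRX h4 had log2 fold changes of 0.28, 0.27 and 0.16. Of the 8 tested, 4 rose and 0 fell, against 18.0% of all genes tested that were higher and 16.0% that were lower. All 8 log2 fold changes were above 0, so with limma 0 of the 8 could be lower at an unadjusted p under 0.05. In 5 of the 8 every *fer-4* library was above every Col-0 library, as in 26.1% of all genes tested. The median log2 fold change was 0.57, against -0.01 over all genes tested, and it was 0.62 with quantile normalization and 0.52 with median scaling, with all 8 values still above 0.

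**Figure D2:**
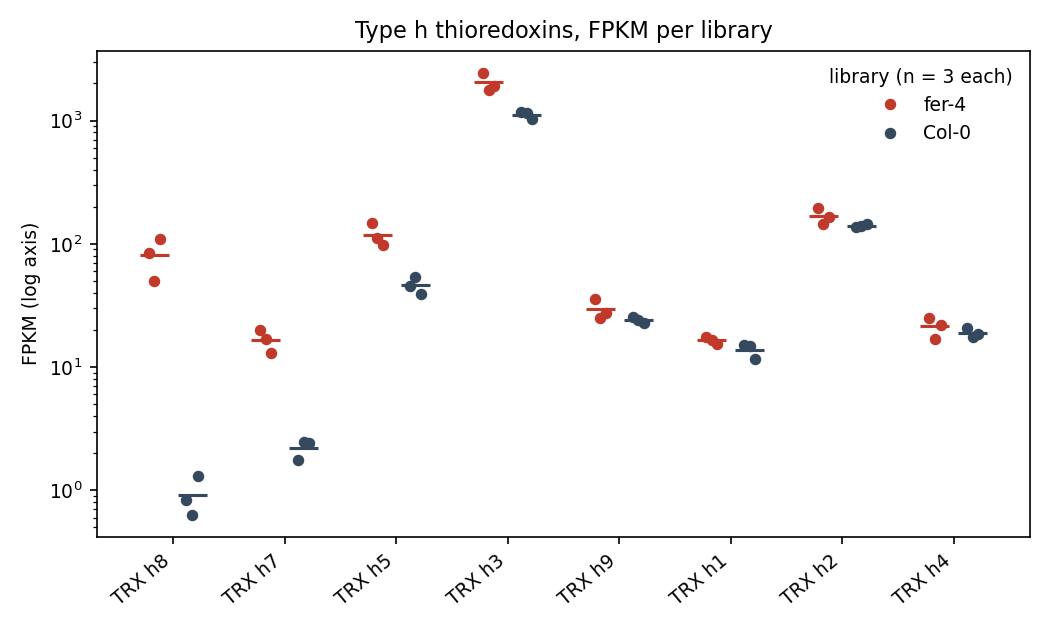
FPKM of the 8 detected type h thioredoxins in each library, on a log axis, with *fer-4* left of Col-0, a point for each of 3 libraries and a line for the mean. TRX h8, TRX h7, TRX h5 and TRX h3 have groups far apart, and TRX h3 stands at the top in both genotypes.

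Within type h, TRX h3 held between 80.9% and 82.5% of the summed FPKM in the 6 libraries, so the sum followed it closely. The type h sum was 2961, 2163 and 2367 FPKM in *fer-4*, against 1409, 1409 and 1272 FPKM in Col-0. TRX h8 stood in the middle of the class in *fer-4* and at its bottom in Col-0. Its level was 0.0343, 0.0279 and 0.0569 times that of TRX h3 in *fer-4*, against 0.000724, 0.000548 and 0.00126 times in Col-0.

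Type o thioredoxins belong to the mitochondria. TRX o2 was at 16.5, 12.2 and 11.97 FPKM in *fer-4*, against 9.85, 9.48 and 9.88 FPKM in Col-0, and it rose (log2 fold change 0.46, standard error 0.13, adjusted p = 0.0299). The groups did not overlap, but the call was lost in 5 of 14 alternatives, among them quantile normalization (adjusted p = 0.0598) and each fit without a Col-0 library. TRX o1 was at 48.6, 41.8 and 49.1 FPKM in *fer-4*, against 43.6, 38.9 and 40.8 FPKM in Col-0 (0.18, adjusted p = 0.19), with groups that overlapped.

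Of the 10 typical chloroplast thioredoxins 5 fell and 5 did not pass, beside 43.7% of chloroplast genes tested that were lower. TRX m1 (AT1G03680, chromosome 1 from 916819 to 918064) was at 316, 288 and 239 FPKM in *fer-4*, against 498, 515 and 524 FPKM in Col-0. TRX f1 (AT3G02730, chromosome 3 from 588408 to 589685), an activator of carbon fixation enzymes, was at 317, 229 and 241 FPKM in *fer-4*, against 419.5, 410.2 and 442 FPKM in Col-0. In both genes every *fer-4* library was below every Col-0 library. The log2 fold changes were -0.88 for TRX m1 (standard error 0.12, adjusted p = 9.62e-04) and -0.71 for TRX f1 (standard error 0.13, adjusted p = 0.00485).

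TRX f2, the close relative of TRX f1, was at 119, 99.1 and 99.8 FPKM in *fer-4*, against 154, 157 and 179.7 FPKM in Col-0 (log2 fold change -0.63, standard error 0.11, adjusted p = 0.00297). TRX m2 was at 456, 358 and 399.5 FPKM in *fer-4*, against 579.6, 550.5 and 631 FPKM in Col-0 (-0.54, standard error 0.12, adjusted p = 0.0101). Neither pair of groups overlapped, and TRX m2 missed the threshold only without Col-0 replicate 3 (adjusted p = 0.0508). TRX z, a subunit of the plastid RNA polymerase complex, averaged 35.5 ± 3.57 FPKM in *fer-4* and 47.9 ± 5.70 FPKM in Col-0 (SD, n = 3 each, limma adjusted p = 0.0216). The fall of TRX z, -0.43, did not pass without *fer-4* replicate 2 (adjusted p = 0.059), without Col-0 replicate 1 (0.0711) or without Col-0 replicate 3 (0.0828).

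TRX m4, an abundant m type, was at 529.6, 381 and 412 FPKM in *fer-4*, against 529.9, 532 and 575 FPKM in Col-0 (log2 fold change -0.32, adjusted p = 0.107). Its *fer-4* replicate 1 sat just under the lowest Col-0 library, and the other two *fer-4* libraries were well below. TRX x and TRX y2, known to reduce peroxiredoxins, had -0.31 (adjusted p = 0.0513) and -0.37 (adjusted p = 0.0607). All 3 passed with quantile normalization and without *fer-4* replicate 1. TRX m3 and TRX y1, the least abundant of these types, had 0.12 and 0.09 with overlapping groups. Of the 10 genes, 0 rose, and with limma 0 were higher at an unadjusted p under 0.05.

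**Figure D3:**
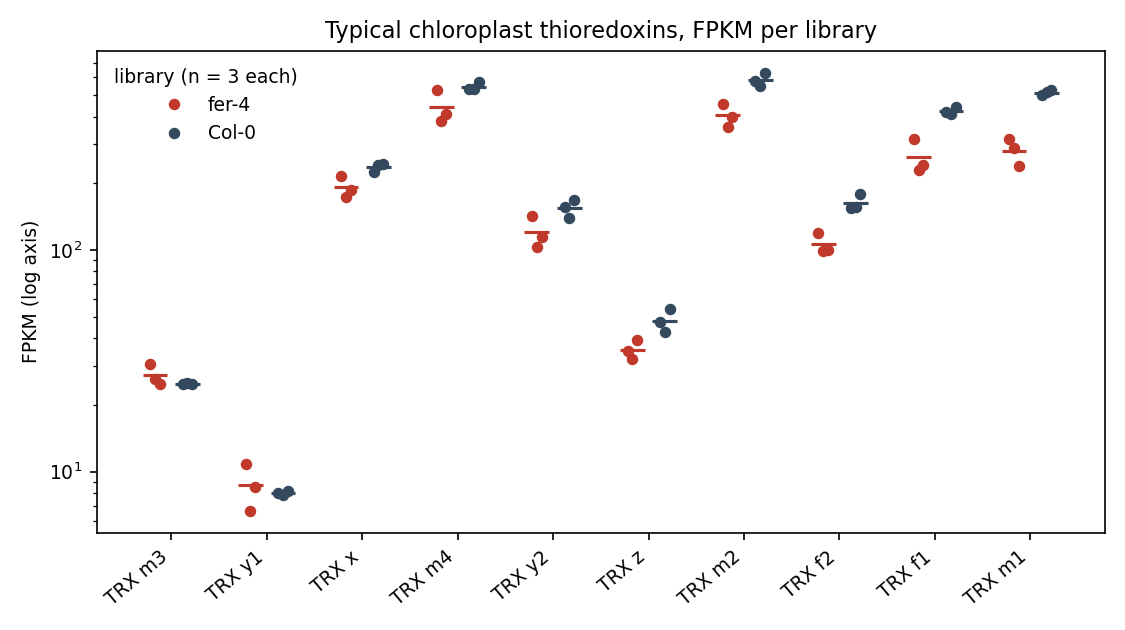
FPKM of the 10 thioredoxins of types f, m, x, y and z in each library, on a log axis, with *fer-4* left of Col-0, a point for each of 3 libraries and a line for the mean. The red *fer-4* points lie below the Col-0 points in 7 of the 10, and in TRX m3, TRX y1 and TRX y2 the groups overlap. Such a separation was found in 56.0% of chloroplast genes and 25.1% of all genes tested.

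The atypical chloroplast members were mixed, with 5 of 10 tested that fell and 1 that rose. These shares were near those of all chloroplast genes tested, at 43.7% lower and 9.94% higher. CDSP32, a stress protein of the stroma with a pair of thioredoxin domains, was at 402, 337 and 376 FPKM in *fer-4*, against 570.0, 538 and 592 FPKM in Col-0 (log2 fold change -0.61, standard error 0.11, adjusted p = 0.00316). ACHT4, known to oxidize an enzyme of starch synthesis, was at 104, 102 and 102 FPKM in *fer-4*, against 162, 176 and 159 FPKM in Col-0 (-0.69, standard error 0.08, adjusted p = 4.40e-04). WCRKC1, a weakly expressed thioredoxin-like gene, was at 3.95, 4.43 and 4.97 FPKM in *fer-4*, against 6.17, 7.57 and 8.92 FPKM in Col-0 (-0.74, standard error 0.16, adjusted p = 0.00839). All 3 had *fer-4* libraries below every Col-0 library.

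HCF164, a thylakoid protein needed to assemble the cytochrome complex between the photosystems, was at 58.0, 50.4 and 56.0 FPKM in *fer-4*, against 70.9, 75.5 and 75.3 FPKM in Col-0 (-0.43, standard error 0.09, adjusted p = 0.00572). AAED1 (AT2G37240) fell by 0.29 on the log2 scale (adjusted p = 0.0398), a call lost in 6 of 14 alternatives. The 1 that rose, a thioredoxin-like gene without a symbol (AT1G07700), was at 83.7, 72.6 and 80.7 FPKM in *fer-4*, against 61.9, 67.1 and 67.1 FPKM in Col-0. Although its groups did not overlap, its change was small (0.27, standard error 0.09, adjusted p = 0.0439), and the call was lost in 9 of 14 alternatives. ACHT1, ACHT2, ACHT5 and WCRKC2 had log2 fold changes between -0.16 and 0.13 and did not pass. Thus ACHT4 fell while the other 3 detected members of its family did not pass, and the difference between them was not tested.

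Together, 10 of 21 chloroplast forms fell, which is 47.6%, and 1 rose. Among the 1227 tested genes with chloroplast in the description 43.7% were lower and 9.94% higher, so the share of chloroplast forms that fell was near that of chloroplast genes at large. Their median log2 fold change of -0.32 likewise stood beside -0.30 for all chloroplast genes tested. In 12 of the 21 every *fer-4* library was below every Col-0 library, against 56.0% of chloroplast genes and 25.1% of all genes tested. Of the 24 other forms tested, 7 rose, which is 29.2%, and 2 fell, which is 8.33%. Among genes without chloroplast in the description 18.5% were higher and 14.2% lower. The other forms had a median of 0.25, against 0.01 for those genes. Without Col-0 replicate 1 or Col-0 replicate 2, only 4 other forms rose and 1 fell, and 1 fell also when *fer-4* replicate 3 or Col-0 replicate 3 was left out. With NTRC set among the chloroplast forms, 11 of 22 fell and only 1 of the other forms did.

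Of the 4 reductases 2 fell and 0 rose, against 16.0% of all genes tested that were lower and 18.0% that were higher. Among tested genes with chloroplast in the description, as in that of FTRB, 43.7% were lower and 9.94% higher. With limma 0 of the 4 were higher at an unadjusted p under 0.05. FTRB, the catalytic subunit of ferredoxin-thioredoxin reductase, was at 229.8, 163 and 159 FPKM in *fer-4*, against 198, 208 and 215 FPKM in Col-0 (log2 fold change -0.19, adjusted p = 0.342). *fer-4* replicate 1 was the highest of all 6 libraries and the other two *fer-4* libraries the lowest, and without it FTRB passed (-0.36, adjusted p = 0.00725), as it did with quantile normalization (adjusted p = 0.0383). NTRC was at 65.5, 74.2 and 76.5 FPKM in *fer-4*, against 94.0, 95.6 and 104 FPKM in Col-0, and fell (-0.44, standard error 0.09, adjusted p = 0.00729). These groups did not overlap, and here *fer-4* replicate 1 was the lowest library.

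NTRA and NTRB are the reductases of the cytosol and mitochondria. NTRA was at 167, 153 and 170.2 FPKM in *fer-4*, against 150.5, 147 and 149.7 FPKM in Col-0 (log2 fold change 0.13, adjusted p = 0.242). With quantile normalization its value was -0.02. NTRB was at 17.8, 16.99 and 15.1 FPKM in *fer-4*, against 20.8, 21.0 and 23.0 FPKM in Col-0, and fell (-0.38, standard error 0.10, adjusted p = 0.0179). The groups of both genes stood apart in opposite directions. NTRB did not pass without *fer-4* replicate 3 (adjusted p = 0.0521) or without Col-0 replicate 1, 2 or 3 (0.0534, 0.0544 and 0.0775). The ratio of NTRA to NTRB was 9.41, 9.03 and 11.3 in *fer-4*, against 7.25, 6.99 and 6.51 in Col-0. Their coding sequences are identical at 83.0% of bases with a shared run of 44 bases. Whether reads were split between them was not tested.

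The other partners of FTRB fell outside the description rule and are given after their values had been seen. FTRA2 was at 77.8, 55.0 and 55.9 FPKM in *fer-4*, against 140.2, 131 and 143 FPKM in Col-0, with no overlap (log2 fold change -1.15, standard error 0.14, adjusted p = 4.86e-04). FTRA1, its homolog, had -0.21 (adjusted p = 0.197). Of the 5 ferredoxins tested, 1 fell and 0 rose, against 16.0% of all genes tested that were lower and 18.0% that were higher. Among chloroplast genes tested, 43.7% were lower and 9.94% higher. All 5 log2 fold changes were below 0, so with limma 0 of the 5 could be higher at an unadjusted p under 0.05. FD2, the main leaf ferredoxin, was at 1044, 995 and 765 FPKM in *fer-4*, against 2906, 2819 and 3109.9 FPKM in Col-0 (-1.67, adjusted p = 1.34e-04). With quantile normalization 4 of the 5 ferredoxins fell, and 42.2% of all genes called were higher.

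The remaining members carry a thioredoxin fold in a larger protein or a distant form of it. TDX, which joins a thioredoxin to a chaperone-binding domain, was at 20.7, 20.5 and 22.4 FPKM in *fer-4*, against 16.5, 16.8 and 17.1 FPKM in Col-0, and rose (0.33, standard error 0.08, adjusted p = 0.0151). It did not pass without Col-0 replicate 1 (adjusted p = 0.071) or Col-0 replicate 2 (0.0614). Clot, named after a homolog in Drosophila, was at 94.8, 63.3 and 84.3 FPKM in *fer-4*, against 58.7, 53.1 and 56.0 FPKM in Col-0, and rose (0.51, standard error 0.14, adjusted p = 0.0265), though not in 6 of 14 alternatives. In both genes the lowest *fer-4* library was above the highest Col-0 library.

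PLP3B, a phosducin-like protein of tubulin folding, was at 29.3, 26.6 and 26.4 FPKM in *fer-4*, against 22.6, 22.2 and 24.3 FPKM in Col-0 (0.25, adjusted p = 0.0514). TXND9 was at 27.1, 24.7 and 22.1 FPKM in *fer-4*, against 20.7, 19.7 and 21.7 FPKM in Col-0 (0.25, adjusted p = 0.0879). YLS8, a relative of a spliceosome protein of yeast, was at 217, 199.8 and 208 FPKM in *fer-4*, against 205, 204 and 213 FPKM in Col-0 (0.01, adjusted p = 0.963). PLP3B and TXND9 had groups apart by a small margin, and those of YLS8 overlapped throughout. CXXS1, which keeps only 1 of the usual cysteines, PLP3A, TTL1, TTL3, TTL4 and the thioredoxin-like gene AT3G53220 did not pass, with log2 fold changes between -0.41 and 0.26. TTL1 was the most variable of these, with *fer-4* replicate 1 at 9.75 FPKM and the other two *fer-4* libraries at 17.9 and 17.1 FPKM.

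The summed FPKM of the 49 members overlapped between the genotypes, at 7061, 5526 and 5924 in *fer-4*, against 6092, 6065 and 6245 in Col-0. What differed was its make-up. Chloroplast forms held 46.5%, 47.4% and 46.6% of the sum in *fer-4*, against 64.5%, 64.5% and 67.2% in Col-0, and the groups were far apart. TRX h3 alone held 34.5%, 32.3% and 32.3% in *fer-4*, against 19.1%, 19.1% and 16.5% in Col-0. Without TRX h3, the chloroplast forms had 2.45, 2.33 and 2.21 times the sum of the other forms in *fer-4*, against 3.92, 3.93 and 4.12 times in Col-0. These shares lie within a library and do not depend on its scale. In whole seedlings fewer cells of a type and less RNA per cell cannot be told apart.

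**Figure D4:**
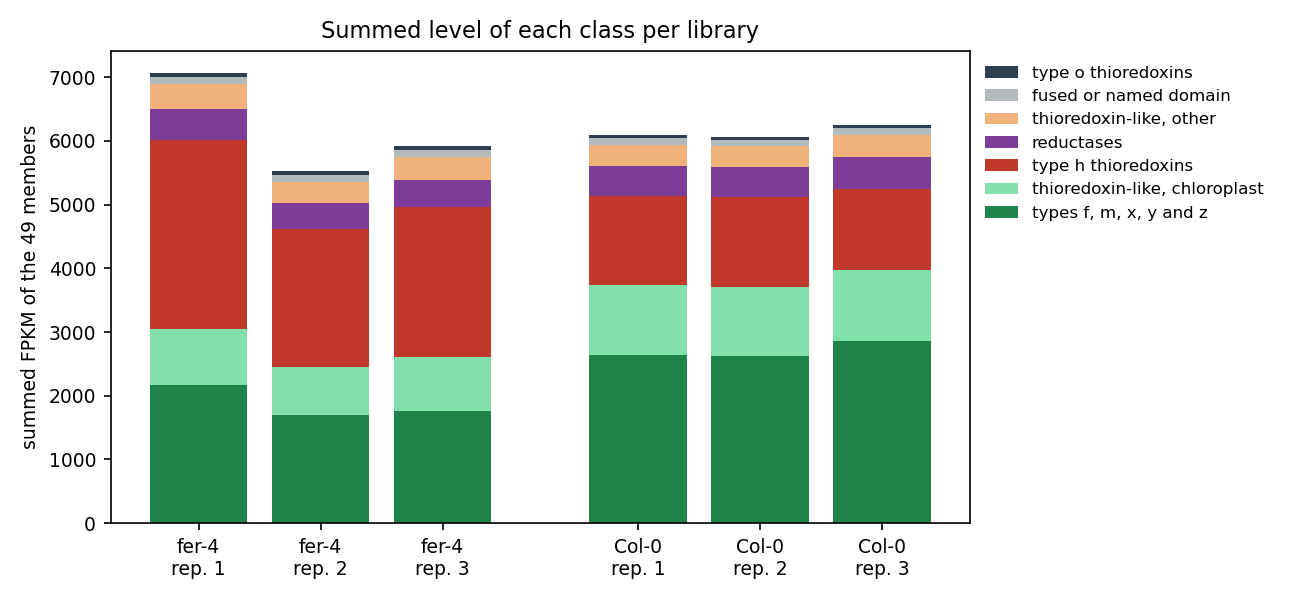
Summed FPKM of the 49 members in each library, stacked by class, with the 3 *fer-4* libraries left of the 3 Col-0 libraries. The red type h segment is 2163 to 2961 in *fer-4* and 1272 to 1409 in Col-0, while the dark green segment of types f, m, x, y and z is 1698 to 2172 in *fer-4* and 2621 to 2851 in Col-0.

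Markers of the seedling's parts changed as well, beside 16.0% of all genes tested that were lower and 18.0% that were higher. The shares of chloroplast genes were 43.7% lower and 9.94% higher. Of 10 genes typical of green shoot tissue, among them RBCS3B and CA1, 6 fell and 0 rose, and their summed level was 32729.7 to 38766 FPKM in *fer-4*, against 50196 to 54059 FPKM in Col-0. With limma 0 of the 10 were higher at an unadjusted p under 0.05, though 1 rose with quantile normalization, and GLK1, a regulator of chloroplast genes, had a log2 fold change of 0.07. Of 12 root genes 8 fell and 2 rose (IRT1 and PYK10), with a sum of 3721 to 3849 FPKM in *fer-4*, against 2244 to 2481 FPKM in Col-0, most of it PYK10. No defining marker of either part was at 0. The part of tissue make-up in the changes of the members was not tested. *fer-4* replicate 1 was the highest of its group in 34 of the 45 members and had the largest FPKM total, and Col-0 replicate 3 was the highest of its group in 29.

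Thioredoxins reduce a range of enzymes, many of them in the chloroplast. Of 15 light-regulated enzymes and regulators of the chloroplast, 11 fell, which is 73.3%, and 1 rose, with a median log2 fold change of -0.56. Among all tested genes with chloroplast in the description 43.7% were lower and 9.94% higher, with a median of -0.30. The lowest were CP12-2, a linker of Calvin cycle enzymes (-1.07), the glyceraldehyde phosphate dehydrogenase subunit GAPB (-0.89) and the rubisco activase RCA (-0.82). RCA was at 3954, 4071 and 3645 FPKM in *fer-4*, against 6914, 6451 and 7190.4 FPKM in Col-0, with no overlap. The 1 that rose was CP12-3 (0.81, adjusted p = 0.00449). Of the 10 peroxiredoxins and sulfiredoxin 4 fell, against 16.0% of all genes tested and 43.7% of chloroplast genes, and they were the chloroplast enzymes 2CPB (-0.79), PRXQ (-0.61), PRXIIE (-0.59) and 2CPA (-0.51). The 1 that rose was PRXIIC, a cytosolic form (0.65, adjusted p = 0.00509).

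Methionine sulfoxide reductases depend on thioredoxins or on glutaredoxins for their electrons, and 10 of 14 rose, which is 71.4%, against 18.0% of all genes tested. MSRB8 was at 11.8, 11.1 and 12.4 FPKM in *fer-4*, against 0.147, 0.339 and 0.0784 FPKM in Col-0 (log2 fold change 5.47, adjusted p = 8.47e-06). Its Col-0 values are near the pseudocount of 0.1, so the size of this change depends on that setting. MSRB7 was at 197, 145 and 156 FPKM in *fer-4*, against 15.7, 14.6 and 15.3 FPKM in Col-0 (3.43, adjusted p = 5.52e-07). MSRB7 and MSRB8 are identical at 97.5% of coding bases, with a shared run of 216 bases, so how their reads were divided is uncertain. MSRB9 (2.08), MSRA2 (1.84), MSRB5 (1.63), MSRB6 (1.33) and MSRB4 (1.22) were DEGs too, which makes 7 of the 14, against 6.36% of all genes tested that were DEGs and higher. MSRB4 to MSRB9, which all rose, have close locus numbers, at AT4G04810 to AT4G04840 or at AT4G21830 to AT4G21850. MSRB3 (AT4G04800), which did not pass, and MSRB2 (AT4G21860), which fell, adjoin them. The genes counted are therefore not all separate in the genome. The median of the 14 was 0.86, against -0.01 over all genes tested. The 2 that fell, MSRB1 (-0.49) and MSRB2 (-0.40), are chloroplast enzymes. With quantile normalization 9 rose and 3 fell, and with median scaling 8 rose and 3 fell.

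**Figure D5:**
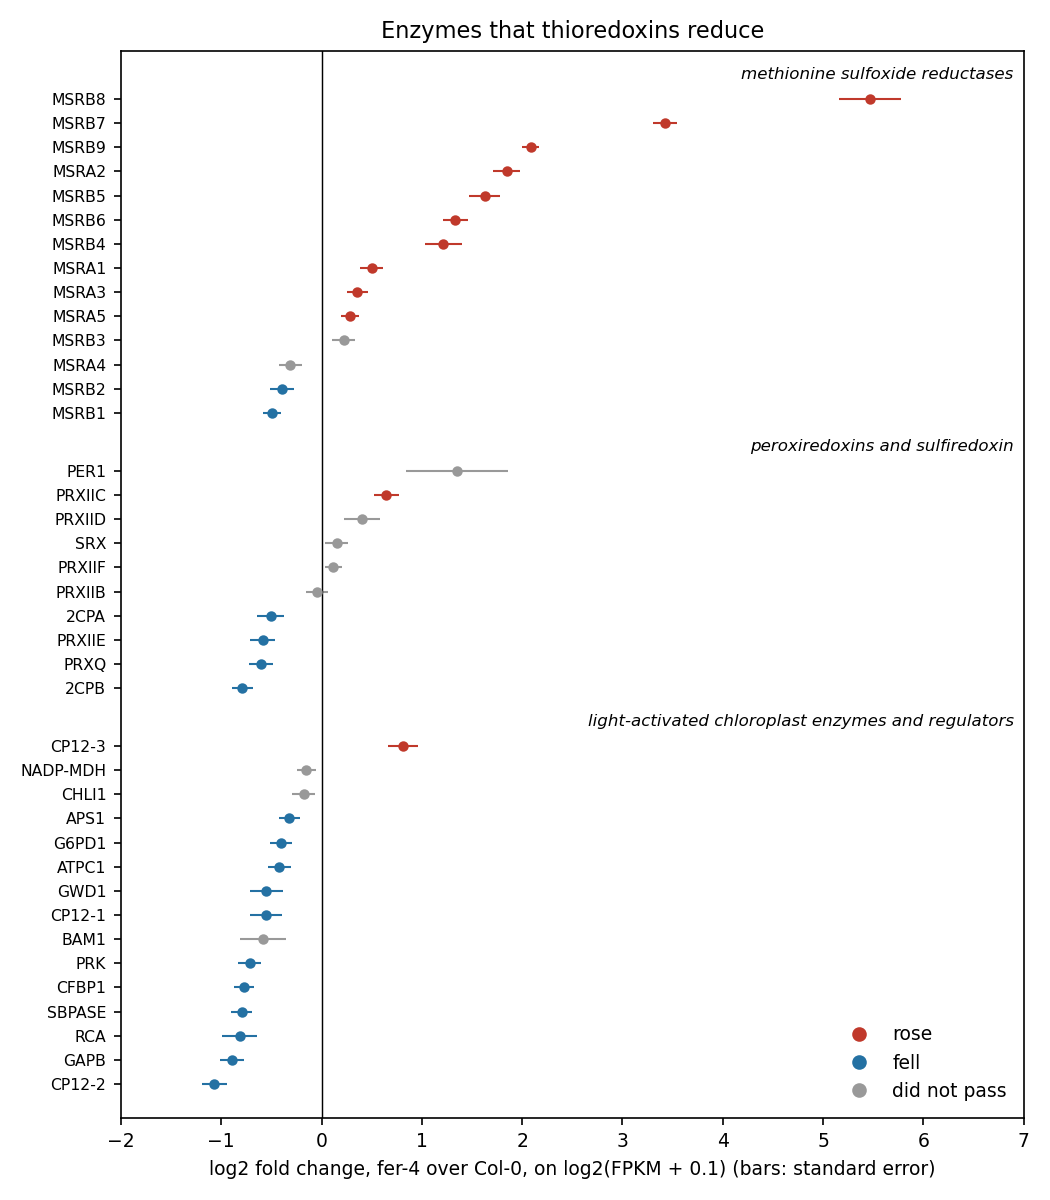
Change in *fer-4* relative to Col-0, on the log2 scale, for 14 methionine sulfoxide reductases, 10 peroxiredoxins and sulfiredoxin, and 15 light-regulated chloroplast enzymes and regulators (labelled light-activated). Bars show the standard error and color the call at an adjusted p under 0.05. The highest point is MSRB8 at 5.47 and the lowest CP12-2 at -1.07.

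NPR1, the target of TRX h5 and TRX h3, was itself at 13.02, 14.6 and 15.9 FPKM in *fer-4*, against 13.7, 13.8 and 14.4 FPKM in Col-0 (log2 fold change 0.05, adjusted p = 0.733), with groups that overlapped. Of the 9 genes of the salicylic acid response tested, 5 rose, against 18.0% of all genes tested, and 0 fell, and with limma 0 were lower at an unadjusted p under 0.05. PR2, a glucanase of pathogen defence, had the largest log2 fold change of them (6.56), followed by PR5 (1.04) and NPR3 (0.92). PR2 was at 19.4, 21.3 and 15.1 FPKM in *fer-4*, against 0.0657, 0.240 and 0.0342 FPKM in Col-0. These Col-0 values are close to the pseudocount of 0.1, so the size of its change depends on that setting. PR1 was at no more than 0.129 FPKM in any library and was not tested. With quantile normalization or median scaling 3 of the 9 rose.

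The 250 bases before each start in the RefSeq annotation of TAIR10.1 were searched on both strands for TTGAC, the core of the W-box bound by WRKY factors, for TGACG, bound by TGA factors, and for CACGTG, the G-box. TTGAC was in 22 of the 45 promoters of members tested, against 45.2% of 19690 promoters of tested genes, TGACG in 9, against 19.3%, and CACGTG in 2, against 7.58%. TTGAC and TGACG can overlap in the letters TTGACG. Those of TRX h8 and TRX h7 held none of the motifs. That of TRX h5 (chr1:17076418-17076667, minus strand), shown because it alone among the type h members tested held TGACG, has its matches in capitals, the last a TTGAC and TGACG that overlap on the other strand.
TRX h5 promoter: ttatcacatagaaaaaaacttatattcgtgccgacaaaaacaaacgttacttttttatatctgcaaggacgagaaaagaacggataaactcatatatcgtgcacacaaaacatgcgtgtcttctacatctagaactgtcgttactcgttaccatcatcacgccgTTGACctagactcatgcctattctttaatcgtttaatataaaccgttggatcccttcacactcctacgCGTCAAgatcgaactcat
Counted from the start of the gene in that annotation, they begin at -86 and -18. That start lies upstream of the edge given above for TRX h5, which comes from the coordinates deposited with the values. Such a match says only that the letters are present.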

How the data were processed

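Total RNA of whole seedlings was extracted with Trizol and made into libraries with a directional kit. Whether counting used the strand was not given in the sources used here. Reads were trimmed and mapped to TAIR10 by the authors, with STAR 2.5 and Cufflinks 2.2.1 named in the submitters' processing notes. Each gene has a deposited FPKM for each library. The unit is inferred, since Cufflinks gives FPKM and the values are fractional. A second deposited table with the authors' log2 fold change, p-value and q-value was not used. Relative depth, from the smallest steps of the values, was 0.871 to 1.02 in *fer-4* and 0.949 to 1.09 in Col-0, with Col-0 replicate 1 as 1.

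Members were found and classed by words in the gene description. Members and lists were chosen with earlier results of these data known. log2(FPKM + 0.1) was fitted for genes averaging 0.5 FPKM or more with limma 3.58.1 (R 4.3.3, intensity trend, 2-sided, no replicate block), a procedure tested on simulated data. With 3 libraries against 3 an exact permutation test cannot give a 2-sided p below 0.1, while limma pools the spread over genes. Values in every library are given for DEGs and, per class, for up to 4 called members in each direction with the largest change and the 2 most abundant, and values of up to 3 genes in each direction are given for the other lists. Alternatives were other pseudocounts, filters and scalings, no trend, a replicate block, leaving out each library, and the DEG thresholds. Of 7465 genes whose end was the same in the files and in the RefSeq annotation, 3883 began 1 base earlier in the files and 22 at the same base, and all file starts were therefore raised by 1. Python 3.11.15 with pandas 2.3.3, numpy 2.4.6 and matplotlib 3.10.9 did the rest.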

Additional observations from a re-analysis of the deposited data

How the results depend on the processing

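Of the 20 members called, 12 stayed at an adjusted p under 0.05 in all 14 alternative fits (TRX h8, TRX h7, TRX h5, TRX h3, TRX m1, TRX f1, TRX f2, ACHT4, CDSP32, HCF164, WCRKC1 and NTRC), and none of the 20 changed sign. Members that rose numbered 8, against 5 with median scaling, 3 at the DEG thresholds and 4 to 9 without one library. Members that fell numbered 12, against 0 at the DEG thresholds and 8 to 16 without one library. The 1 chloroplast form that rose became 0 with quantile normalization, median scaling, no trend, the replicate block and the DEG thresholds, and 0 to 1 without one library. Chloroplast forms that fell numbered 10, against 14 with quantile normalization, 0 at the DEG thresholds and 7 to 14 without one library. Other forms that rose numbered 7, against 3 at the DEG thresholds and 4 to 8 without one library. Other forms that fell numbered 2, against 0 at the DEG thresholds, 1 to 2 without one library, and 1 with NTRC as a chloroplast form, an alternative chosen after seeing the data. The cause of these shifts was not tested, apart from the stricter thresholds.

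Of the members not called, 7 changed sign under some alternative. With quantile normalization NTRA had -0.015, ACHT2 -0.024 and YLS8 -0.12, and with median scaling YLS8 had -0.049. Without one library PLP3A ranged from -0.28 to 0.037, ACHT5 from -0.091 to 0.18, YLS8 from -0.024 to 0.035, CXXS1 from -0.12 to 0.024 and TRX y1 from -0.088 to 0.26. Over all genes, 6739 were called, which became 4362 when Col-0 replicate 1 was left out and 7681 when *fer-4* replicate 1 was. Replicate numbers are not known to pair libraries, and the deviations of same-numbered libraries had correlations of -0.04, 0.04 and -0.07 across genes. With the replicate block 6390 genes were called, and 13 members fell and 7 rose. Depth in fragments is unknown, so low members such as WCRKC1 and TRX h8 in Col-0 have no counting error given.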
